A study of Ovis aries with 2 samples.

Results

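Genes of the growth hormone and insulin-like growth factor (IGF) axis were followed through the white blood cells of sheep. They were chosen by name, as GHR, PRLR, IGF1R, IGF2R, INSR, IGF2, IGF2BP2 and IGF2BP3, and selected on their measured levels and shares of positive barcodes in these same libraries, so those levels and the differences between libraries are given as a description. Of the 8 genes, 7 were among the 26814 gene names of the count files, and PRLR, the prolactin receptor, is not analysed here. Growth hormone acts through GHR, a cytokine-type receptor that signals by JAK2 and STAT5 and, in liver above all, switches on the making of IGF1. IGF1R and INSR are tyrosine kinase receptors that signal through insulin receptor substrates, PI3K and AKT, whereas IGF2R carries IGF2 and mannose 6-phosphate-tagged enzymes to the lysosome. IGF2 is a growth factor best known from the fetus, and IGF2BP2 and IGF2BP3 are RNA-binding proteins that hold IGF2 and other messenger RNAs and are likewise best known from embryonic tissue.

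Blood mononuclear cells were taken without culture and read by droplet single-cell RNA sequencing of transcript 3′ ends, in which each molecule carries a unique molecular identifier (UMI). One group was untreated, and the other, A.G.-ES, had a suture embedded at the acupuncture point ST36 on both sides before blood was drawn; the series title names the suture's drugs as astragaloside IV and glycyrrhizic acid and the animals as weaned lambs. The labels give 1 library to each group and no number of animals, age, sex or breed for a library. With 1 library per group there is no replicate check, and no test between treatments was made. All intervals below are 95% intervals that cover counting error only. Those of levels and ratios treat each UMI as independent, so they are too narrow where single barcodes hold many UMIs of a gene.

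The untreated library held 8246 barcodes and 55861418 UMIs and the A.G.-ES library 9638 barcodes and 44485442 UMIs, and 7565 and 8737 barcodes were kept. Of these, 5461 (72.2%) and 4927 (56.4%) fell into 1 of 6 gates set on marker genes. A total of 61 barcode sequences occurred in both libraries. Y-linked genes, 85 in all, had 40426 untreated UMIs against 753 for A.G.-ES. Treatment, animal, sex and library cannot be told apart in any difference given here.

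The CD4 T gate held 354 untreated and 1364 A.G.-ES barcodes, the CD8B T gate 166 and 555, the T gate set on SOX13 or RHEX 1264 and 744, the NK gate 44 and 95, the B gate 3462 and 1922, and the monocyte gate 171 and 247. Markers not used for gating were checked in each. The CD4 T list (IL7R, CD28, ICOS, CD40LG, CCR7) summed to 1834 and 1941 CPM (counts per 1000000 UMIs) in the CD4 T gate and to at most 1075 CPM in any other. IL7R gave 1171 and 1331 CPM of it. IL7R, CD28, ICOS and CD40LG were each highest in that gate, but CCR7 was higher in the B gate (88.8 and 69.1 CPM) than there (11.8 and 20.3 CPM). The B list summed to 4335 and 2551 CPM in the B gate and to at most 439 CPM elsewhere. The monocyte list summed to 3220 and 3526 CPM in the monocyte gate, although CD68 was at 0 in every gate, and to at most 120 CPM elsewhere. Labels of the other gates were less well borne out. The SOX13/RHEX T list (SOX4, IL1R1, GATA3, ID3, BLK) summed to 1756 and 1743 CPM in its own gate but also to 1426 and 1178 CPM in the CD4 T gate. GATA3 gave 1358 and 1133 CPM of the latter. Untreated, SOX4, ID3 and BLK stood at 10.8, 6.16 and 6.16 CPM in CD4 T and at 367, 88.6 and 403 CPM in SOX13/RHEX T, while IL1R1 went the other way (44.7 and 3.89 CPM). The NK list was higher in the CD8B T gate (7483 and 6006 CPM) than in the NK gate (5469 and 3148 CPM). KLRF1, an NK receptor, was at 0 in the CD8B T gate of both libraries. The CD8B T list summed to 1086 and 2784 CPM in its own gate and to 1528 and 2046 CPM in the NK gate. The CD8B T and SOX13/RHEX T gates are therefore called by the genes that set them, and NK stands only as a short name for a gate that its list did not set apart.

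Levels are CPM of all UMIs summed over a gate, and the ratio between libraries is A.G.-ES over untreated. Because only transcript ends were read, levels are compared for 1 gene between gates and libraries and not between genes. In a whole library, GHR had 39.4 CPM (37.7 to 41.2) when untreated and 134 CPM (131 to 138) after A.G.-ES. IGF2 stood at 5.72 CPM (5.08 to 6.42) and 33.8 CPM (32.0 to 35.7), and IGF2BP3 at 48.0 CPM (46.1 to 49.9) and 1.94 CPM (1.52 to 2.42). The libraries also differ in the makeup of their barcodes, since B-gate barcodes were 45.8% of the kept untreated barcodes and 22.0% of the A.G.-ES ones. The values within gates follow.

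**Figure D1:**
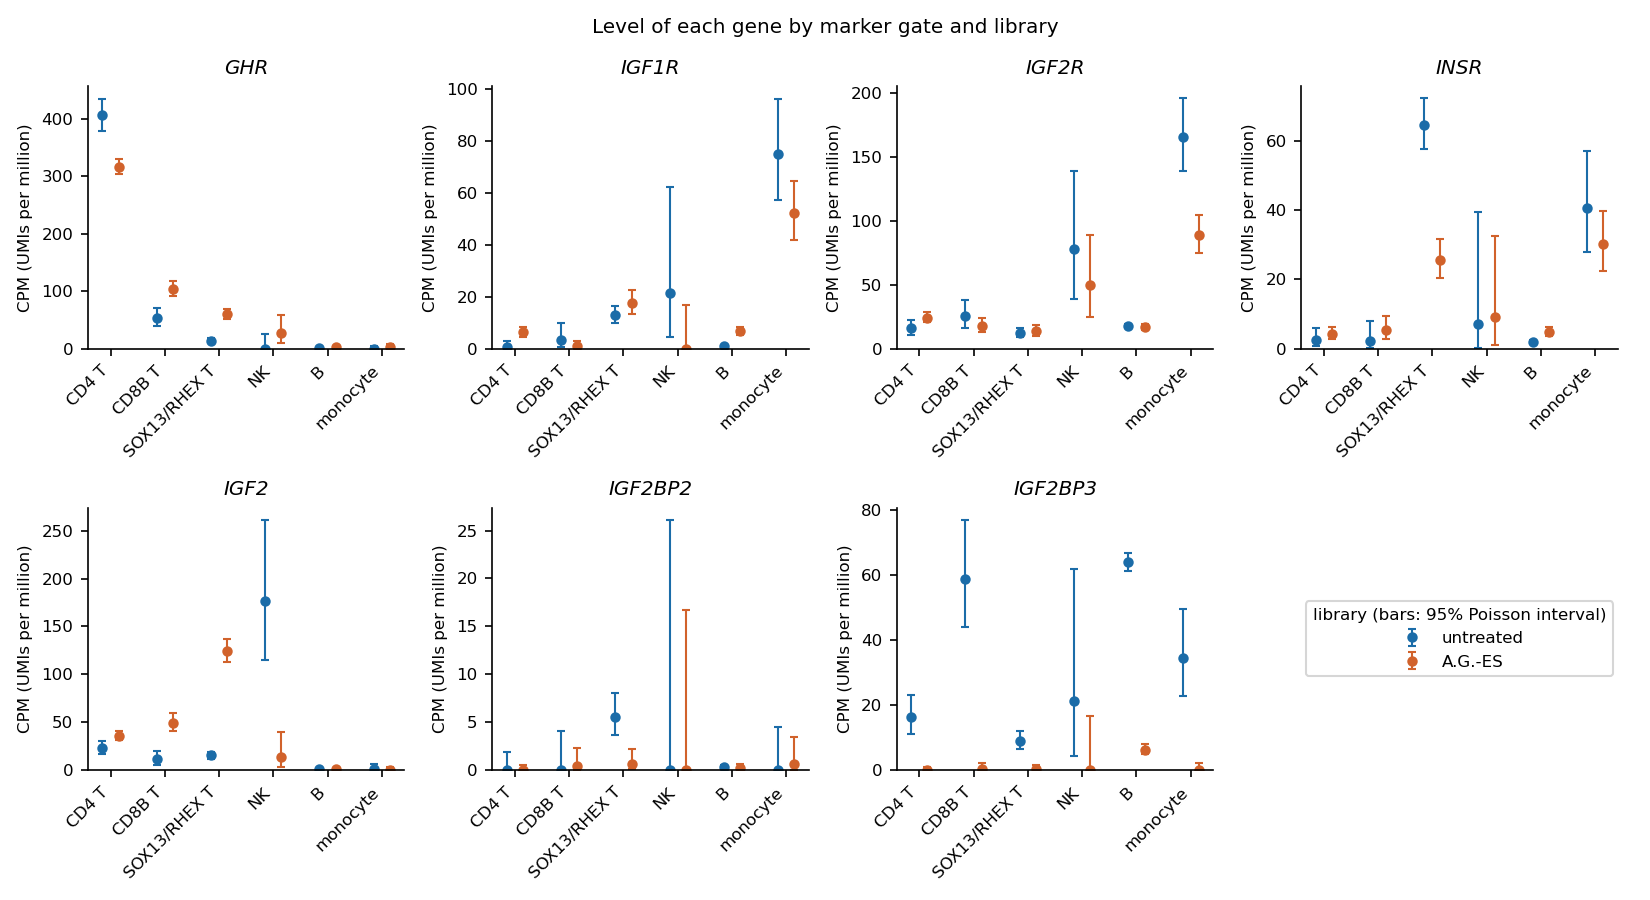
Level of each of the 7 genes in CPM (linear axis, own scale for each gene) in the 6 marker gates, with untreated in blue and A.G.-ES in orange, and bars for the 95% Poisson interval. GHR is highest in the CD4 T gate of both libraries (407 and 317 CPM), IGF1R and IGF2R in the monocyte gate, and IGF2BP3 stands at no more than 6.31 CPM in any A.G.-ES gate.

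GHR, the growth hormone receptor, was a gene of the CD4 T gate in both libraries. The gate held 792 GHR UMIs untreated and 2091 in A.G.-ES, or 407 CPM (379 to 436) and 317 CPM (304 to 331). GHR was found in 133 of 354 untreated CD4 T barcodes (37.6%) and in 592 of 1364 A.G.-ES ones (43.4%). The next gate in order was CD8B T, with 53.3 CPM (39.3 to 70.7) untreated and 104 CPM (91.7 to 118) in A.G.-ES. The SOX13/RHEX T gate followed with 13.9 CPM (10.8 to 17.6) and 60.3 CPM (52.2 to 69.4). The B gate stood at 1.11 CPM (0.780 to 1.54) and 2.70 CPM (1.82 to 3.86), with GHR in 0.838% and 1.46% of barcodes at median depths of 8757 and 5183 UMIs, against 5173.5 and 4625.5 UMIs in the CD4 T gate. The monocyte gate had 0 and 5 GHR UMIs and the NK gate 0 and 6, where 0 of 44 untreated NK barcodes allows a level of up to 21.2 CPM at 3 counts. The intervals of the 3 T gates did not overlap in either library. They treat UMIs as independent, although 1 untreated barcode held 37 of the 68 UMIs in SOX13/RHEX T and 1 held 11 of the 48 in CD8B T. The Poisson intervals of the NK gate, 0 to 26.1 CPM untreated and 9.95 to 59.0 CPM in A.G.-ES, lay below the CD4 T and CD8B T gates in both libraries. They overlapped that of the SOX13/RHEX T gate in both. They also overlapped those of the B and monocyte gates untreated, and lay above these 2 in A.G.-ES.

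Ranked by the level in the CD4 T gate over the highest other gate, with 10 CPM added to both, GHR was gene 2 of 7201 untreated (6.58) and gene 9 of 9491 for A.G.-ES (2.86). GHR was chosen as a CD4 T marker gene of these same libraries, so a high rank follows from the choice and is given as a description only. With barcodes thinned to 1500 UMIs, which left out 2 untreated and 16 A.G.-ES barcodes that were shallower, the share of CD4 T barcodes with GHR was 23.6% (19.2 to 28.4) untreated and 27.7% (25.3 to 30.1) in A.G.-ES. Those intervals overlap, and the shares were 22.6% and 21.3% at 1000 UMIs. Barcodes with any GHR UMI held a mean of 5.95 untreated and 3.53 in A.G.-ES, but a median of 3 in both libraries. The higher untreated mean thus came from a part of the positive barcodes.

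Within the CD4 T gate, GHR was much higher in barcodes with a UMI of FOXP3, the transcription factor of regulatory T cells. In the untreated library 30 FOXP3-positive barcodes had 1487 CPM of GHR (1300 to 1692), and 66.7% of them had a GHR UMI. In the A.G.-ES library 49 such barcodes had 538 CPM (449 to 640), and 51.0% had one. FOXP3-positive barcodes made up 8.47% of the untreated and 3.59% of the A.G.-ES CD4 T gate. Without them GHR stood at 314 CPM (288 to 341) untreated and 309 CPM (295 to 323) in A.G.-ES, and the ratio between libraries, 0.780 (0.719 to 0.848) over the whole gate, became 0.985. TMM scaling moved the ratio of the whole gate to 0.903. It moved the other way with every barcode at the same weight (0.674) and with barcodes thinned to 1500 UMIs (0.702). Leaving out FOXP3-positive barcodes was chosen after the values were seen.

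GHR was lower in barcodes with CCR7, a lymph node homing receptor of naive and central memory T cells. CCR7-positive CD4 T barcodes had 50.8 CPM (18.6 to 111) untreated and 72.0 CPM (51.4 to 98.1) in A.G.-ES, against 430 CPM (400 to 461) and 340 CPM (325 to 355) in those without a CCR7 UMI. These intervals of level did not overlap in either library, but the untreated CCR7-positive value rests on 6 GHR UMIs in 3 of 18 barcodes. The untreated shares of barcodes with GHR, 16.7% (3.58 to 41.4) and 38.7% (33.5 to 44.1), overlapped. Those of A.G.-ES, 13.1% (7.34 to 21.0) of 107 barcodes and 46.0% (43.2 to 48.8) of 1257, did not. In the CD8B T gate, barcodes with at least 3 UMIs of GNLY, a granule protein of cytotoxic cells, had 8.13 CPM (1.68 to 23.8) untreated and 45.02 CPM (30.8 to 63.6) in A.G.-ES. CD8B T barcodes at 0 GNLY had 89.8 CPM (65.0 to 121) and 132 CPM (114 to 153). GATA3, the Th2 transcription factor, was compared in the A.G.-ES CD8B T gate and stood at 1152 CPM in GHR-positive and 210 CPM in other barcodes.

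**Figure D2:**
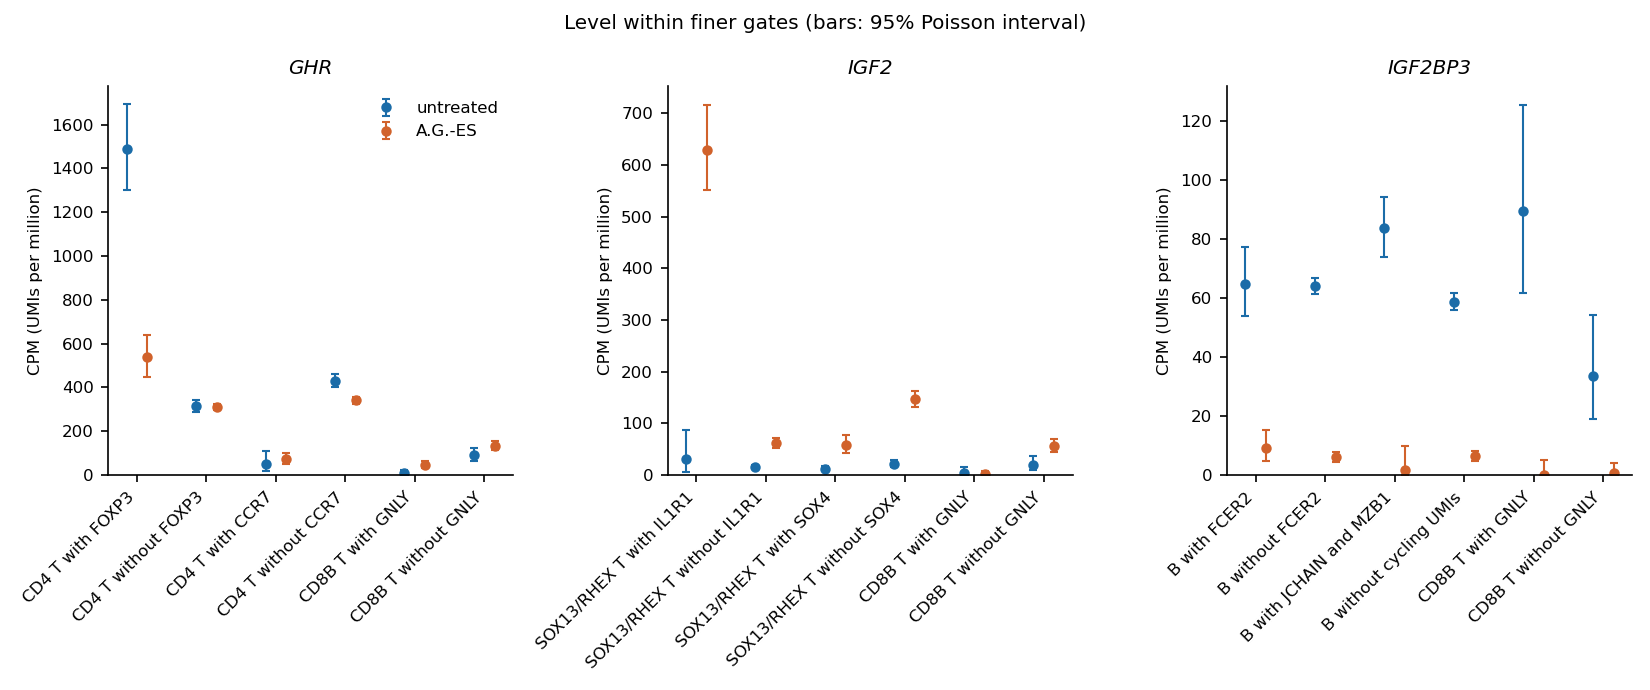
Level in CPM (linear axes) of GHR, IGF2 and IGF2BP3 within finer gates, untreated in blue and A.G.-ES in orange, with bars for the 95% Poisson interval. GHR peaks in FOXP3-positive CD4 T barcodes (1487 and 538 CPM), IGF2 in IL1R1-positive SOX13/RHEX T barcodes of the A.G.-ES library (630 CPM), and IGF2BP3 is low in every A.G.-ES gate shown.

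Over the 12 sums of gate and library, the gene whose log2(CPM + 10) followed that of GHR most closely was GPR15, a homing receptor of T cells (Pearson r = 0.98), before CD40LG and CD28 (0.95 each), ICOS and IL2RA (0.93 each). The points share libraries and depth, and CD40LG, CD28 and ICOS are markers of the gate. The likeness between gates did not extend to single barcodes. Within the CD4 T gate GHR stood at 129 CPM (92.3 to 174) in the 50 untreated barcodes with GPR15 and at 461 CPM (429 to 495) in the 304 without. In A.G.-ES it stood at 189 CPM (155 to 227) in 110 barcodes with GPR15 and at 330 CPM (316 to 345) in 1254 without. This split by GPR15 was made after the likeness was seen.

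Between libraries, GHR was higher in A.G.-ES in the CD8B T gate, from 48 and 249 UMIs, with a ratio of 1.95 (1.43 to 2.72). Barcodes with at least 3 GNLY UMIs, where GHR was lower, made up 48.2% of the untreated and 35.9% of the A.G.-ES gate. The intervals of GHR level given above overlapped between libraries at 0 GNLY but not with GNLY. In GHR-positive barcodes of the A.G.-ES gate the CD4 T list summed to 1477 against 987 CPM in the others, and the CD8B T list to 1314 against 3107 CPM. The part of this makeup in the ratio was not tested. In the SOX13/RHEX T gate 68 and 196 UMIs gave a ratio of 4.33 (3.27 to 5.80). Of the 68 untreated UMIs there, 37 came from 1 barcode, and without the barcode with the most UMIs in each library the ratio was 8.64. GHR was in 9 of 1264 untreated SOX13/RHEX T barcodes (0.712%) and in 83 of 744 A.G.-ES ones (11.2%). With at least 3 UMIs of SOX13 and RHEX together, 1 untreated and 85 A.G.-ES GHR UMIs were left. The GHR-positive barcodes of the A.G.-ES gate had more CD28 (60.6 against 9.27 CPM) and THEMIS (80.9 against 10.3 CPM) than the other barcodes there, and the CD4 T list summed to 1402 against 1013 CPM. These positive barcodes were deeper, with a median of 5194 against 4108 UMIs. The part of other T cells in the difference between libraries was not tested. The B gate, with 36 and 30 GHR UMIs, had a ratio of 2.43 (1.45 to 4.06), or 1.48 with every barcode at the same weight.

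The number of genes that crossed 1.5-fold depends on the gate, and the counts of axis genes are read against it. A gene was counted with at least 20 UMIs over both libraries in a gate. In the CD4 T gate 10.4% of 9982 genes were at least 1.5-fold higher in A.G.-ES and 18.3% at least 1.5-fold lower, and of 6 axis genes past the minimum 4 were higher (IGF1R, IGF2R, INSR, IGF2) and 1 lower (IGF2BP3). In the CD8B T gate the background was 9.86% higher and 29.9% lower of 8279 genes, and of 4 axis genes 2 were higher (GHR, IGF2) and 1 lower (IGF2BP3). In the SOX13/RHEX T gate 10.7% of 9859 genes were higher and 17% lower, and all 7 axis genes passed, with 2 higher (GHR, IGF2) and 3 lower (INSR, IGF2BP2, IGF2BP3). In the NK gate 19% of 3077 genes were higher and 18.2% lower, and both axis genes that passed were lower (IGF2R, IGF2). In the B gate 17% of 12538 genes were higher and 17.1% lower, and of 6 axis genes 3 were higher (GHR, IGF1R, INSR) and 1 lower (IGF2BP3). In the monocyte gate 15.2% of 7231 genes were higher and 15.3% lower, and of 4 axis genes 0 were higher and 2 lower (IGF2R, IGF2BP3). The genes were chosen with these contrasts known, so nothing is read from the counts.

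The split of all genes past 1.5-fold depends on the scaling. With TMM, which centres the bulk of genes, every log2 ratio shifts up by 0.21 in the CD4 T, 0.33 in the CD8B T, 0.12 in the SOX13/RHEX T and 0.12 in the NK gate. The higher genes then make up 60.2% in place of 36.2% of those past 1.5-fold in the CD4 T gate, 57.7% in place of 24.8% in CD8B T, 51.3% in place of 38.5% in SOX13/RHEX T and 63.7% in place of 51.0% in NK. The shift was 0.01 in the B and 0.08 in the monocyte gate.

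**Figure D3:**
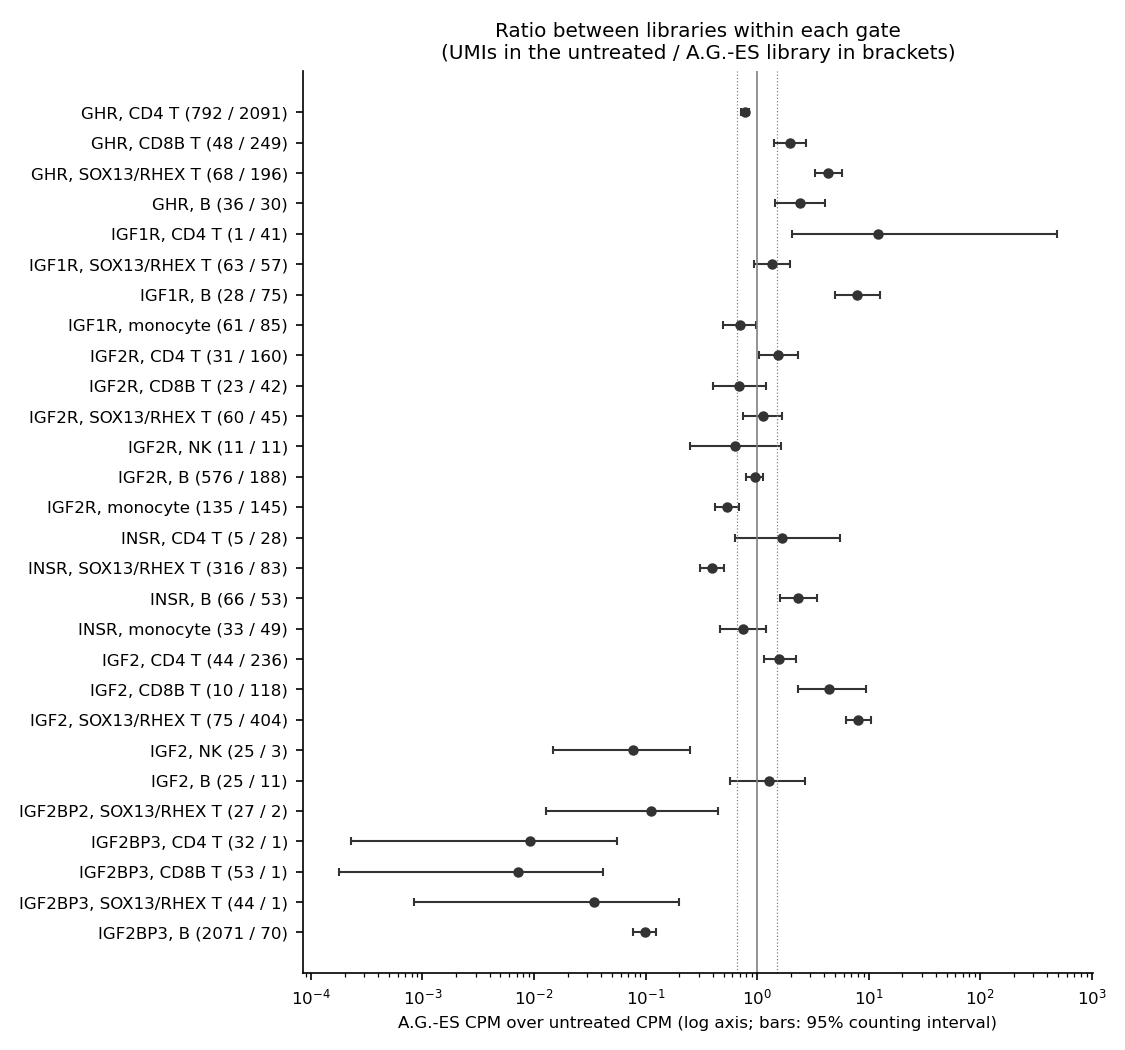
Ratio of A.G.-ES to untreated CPM on a log axis for each gene and gate with at least 20 UMIs over both libraries and a UMI in each, with bars for the 95% counting interval, UMI counts in brackets, a grey line at 1 and dotted lines at 1.5-fold. IGF2BP3 lies far to the left in all 4 gates shown (0.00711 to 0.0986), while IGF2 lies at 8.10 in SOX13/RHEX T and 0.0766 in NK.

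IGF1R, the receptor of IGF1 and IGF2, was highest in the monocyte gate. It stood there at 75.0 CPM (57.3 to 96.3) untreated and 52.2 CPM (41.7 to 64.6) in A.G.-ES, from 61 and 85 UMIs, with a ratio of 0.697 (0.496 to 0.985). The share of monocyte-gate barcodes with IGF1R was 22.8% and 23.1%. With barcodes thinned to 1500 UMIs the ratio was 1.22, from 1 draw with 12 and 21 positive barcodes and with 17 and 5 shallower barcodes left out. The shares were 7.79% and 8.68% at 1500 UMIs and 8.75% and 8.16% at 1000, so no direction is read, and the median depth of the gate was 4127 untreated and 6445 UMIs in A.G.-ES. The SOX13/RHEX T gate had 63 and 57 UMIs, 12.9 CPM (9.91 to 16.5) and 17.5 CPM (13.3 to 22.7), with overlapping intervals and a ratio of 1.36 (0.933 to 1.98) that became 0.927 with at least 3 UMIs of SOX13 and RHEX. The CD4 T gate had 1 untreated and 41 A.G.-ES UMIs, a ratio of 12.1 whose interval ran from 2.06 to 490.

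Among B-gate barcodes IGF1R was low in both libraries and uneven between them, with 28 UMIs (0.866 CPM, 0.575 to 1.25) untreated and 75 UMIs (6.76 CPM, 5.32 to 8.48) in A.G.-ES and a ratio of 7.81 (4.999 to 12.5). The A.G.-ES UMIs came from 33 of 1922 barcodes, and these differed from the rest of the gate. Among them KLRK1, an activating receptor of NK and T cells, stood at 676 against 8.49 CPM, ESR1, the estrogen receptor, at 895 against 20.9 CPM, SOX4 at 465 against 6.83 CPM and HOXA9, a transcription factor of blood progenitors, at 301 against 2.49 CPM. Each of these 4 genes was in 12 to 14 of the 33 barcodes. The 33 were deeper, with a median of 6831 against 5171 UMIs. The B list summed to 907 CPM in them against 2589 CPM in the others, with all 5 genes detected. The dendritic list (FLT3, XCR1, CLEC9A, IRF8, TCF4) summed to 1947 against 604 CPM, with 3 of 5 detected. Over the whole A.G.-ES B gate TCF4 gave 538 and IRF8 85.0 of that list's 635 CPM, so no cell type is read from its sum. INSR was in 10 of the 33 (30.3%, 15.6 to 48.7) and in 1.54% (1.03 to 2.20) of the others. The part of cells other than B cells in this difference was not tested.

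INSR, the insulin receptor, was highest in the SOX13/RHEX T gate of the untreated library. The gate held 316 INSR UMIs untreated (64.7 CPM, 57.8 to 72.2) and 83 in A.G.-ES (25.5 CPM, 20.3 to 31.7), a ratio of 0.395 (0.306 to 0.504). INSR was in 225 untreated barcodes (17.8%) and 66 A.G.-ES barcodes (8.87%), and after thinning to 1500 UMIs in 9.04% (7.49 to 10.8) and 3.54% (2.32 to 5.14). The intervals did not overlap. With stricter gates the ratio was 0.232. In the monocyte gate INSR stood at 40.5 CPM (27.9 to 56.9) and 30.1 CPM (22.3 to 39.8), so that in A.G.-ES the monocyte gate was at or above the SOX13/RHEX T gate, with overlapping intervals.

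INSR differed more in SOX13/RHEX T barcodes without SOX4, a transcription factor of early lymphocytes. Barcodes with SOX4 had 62.2 CPM of INSR (53.4 to 71.9) untreated and 48.6 CPM (34.6 to 66.4) in A.G.-ES, whose intervals overlap. Those without SOX4 had 68.4 CPM (57.4 to 80.9) and 18.0 CPM (13.1 to 24.1). SOX4-positive barcodes made up 58.3% of the untreated and 27.2% of the A.G.-ES gate. The difference between the SOX4 classes was not tested. Among B-gate barcodes INSR was low and went the other way, with 66 and 53 UMIs, 2.04 CPM (1.58 to 2.60) and 4.78 CPM (3.58 to 6.25), and a ratio of 2.34 (1.60 to 3.41). The 39 A.G.-ES B-gate barcodes with INSR were led by DGKB, SOX4, ESR1 and KLRK1, all 4 of which were also among the first 5 genes of those with IGF1R, and with stricter gates the ratio was 1.48. The CD4 T gate had 5 and 28 INSR UMIs (1.66, 0.631 to 5.49), the CD8B T gate 2 and 13, and the NK gate 1 and 2.

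IGF2R, the clearing receptor of IGF2, was highest in the monocyte gate and present at a lower level in all others. In monocytes 135 and 145 UMIs gave 166 CPM (139 to 196) untreated and 89.1 CPM (75.2 to 105) in A.G.-ES, a ratio of 0.537 (0.422 to 0.684). It was in 40.4% and 35.2% of monocyte-gate barcodes, and in 16.9% (11.3 to 23.8) and 15.7% (11.4 to 20.9) after thinning to 1500 UMIs, where the intervals overlap. Thinning to 1000 UMIs gave 16.3% and 6.53%, so the gap in shares depended on the thinning. The ratio was 0.770 on the counts thinned to 1500 UMIs and 0.706 with stricter gates, both short of 1.5-fold. One untreated barcode held 16 of the 135 UMIs.

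The NK gate had 11 IGF2R UMIs in each library, 77.8 CPM (38.8 to 139) and 49.7 CPM (24.8 to 88.9). In the B gate 576 and 188 UMIs gave 17.8 CPM (16.4 to 19.3) and 16.9 CPM (14.6 to 19.6), a ratio of 0.952 (0.803 to 1.12). The CD4 T gate had 15.9 CPM (10.8 to 22.6) and 24.3 CPM (20.7 to 28.3), with a ratio of 1.53 (1.03 to 2.32) that came to 1.09 on thinned counts, 1.28 with equal weights and 1.31 with doublets kept. The CD8B T gate had a ratio of 0.688 (0.405 to 1.20) from 23 and 42 UMIs and the SOX13/RHEX T gate one of 1.13 (0.748 to 1.69) from 60 and 45.

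IGF2, the ligand, was higher in each of the 3 T gates than in the B and monocyte gates of both libraries. The untreated CD8B T and monocyte intervals, 5.33 to 20.4 and 0.0311 to 6.85 CPM, overlapped. The SOX13/RHEX T gate held 75 IGF2 UMIs untreated (15.4 CPM, 12.1 to 19.2) and 404 in A.G.-ES (124 CPM, 112 to 137), a ratio of 8.10 (6.31 to 10.5). IGF2 was in 3.40% and 15.6% of those barcodes, and after thinning in 1.89% (1.20 to 2.82) and 8.98% (7.01 to 11.3). The CD8B T gate held 10 and 118 UMIs, 11.1 CPM (5.33 to 20.4) and 49.4 CPM (40.9 to 59.2), with a ratio of 4.45 (2.33 to 9.51). The CD4 T gate held 44 and 236 UMIs, 22.6 CPM (16.4 to 30.3) and 35.8 CPM (31.4 to 40.7), with a ratio of 1.59 (1.15 to 2.24), or 1.23 with stricter gates. One untreated CD4 T barcode gave 16 of the 44 UMIs, and without the barcode with the most UMIs in each library the ratio was 2.33. IGF2 was thus higher in A.G.-ES in all 3 T gates, also with TMM or DESeq2 scaling.

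Much of the IGF2 in the A.G.-ES SOX13/RHEX T gate lay in a small set of barcodes with IL1R1, the receptor of interleukin 1. The 63 IL1R1-positive barcodes of 744 held 228 of the 404 IGF2 UMIs, a level of 630 CPM (551 to 717), and 37 of them (58.7%) had an IGF2 UMI. In the untreated library 14 barcodes had IL1R1 and held 3 IGF2 UMIs in 1 barcode. Without IL1R1-positive barcodes IGF2 stood at 15.05 CPM (11.8 to 18.95) untreated and 60.9 CPM (52.3 to 70.6) in A.G.-ES, a ratio of 4.05. IL1R1 also led the genes higher in IGF2-positive barcodes of the A.G.-ES CD4 T gate, at 135 against 23.6 CPM. The IL1R1 split was made after IL1R1 was seen to lead these lists. IGF2 was higher in SOX13/RHEX T barcodes without SOX4 (20.6 and 146 CPM) than with it (11.7 and 57.3 CPM). In the CD8B T gate it stood at 18.8 and 56.3 CPM where GNLY was at 0 and had 1 UMI in each library where GNLY was high. These 2 classes held 79 and 1 of the 118 A.G.-ES UMIs of that gate. The rest, with the barcode that held the most (17 UMIs), lay in barcodes between the classes, so no order along GNLY is read.

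Outside the T gates IGF2 rested on few UMIs. The B gate had 25 and 11 UMIs (0.773 and 0.992 CPM) and the monocyte gate 1 in each library. The NK gate had 25 untreated and 3 A.G.-ES UMIs, at 177 CPM (114 to 261) and 13.6 CPM (2.79 to 39.6), a ratio of 0.0766 (0.0148 to 0.251). The untreated NK level was the highest of the 12 sums over gates and libraries, but 22 of its 25 UMIs were in 1 of 44 barcodes. GHR and IGF2 were compared in the same barcodes of the A.G.-ES T gates. In the A.G.-ES CD4 T gate GHR was in 47.2% (35.3 to 59.3) of barcodes with IGF2 and in 43.2% (40.5 to 45.9) of those without. The shares were 31.6% (17.5 to 48.7) and 16.1% (13.0 to 19.5) in CD8B T, and 15.5% (9.46 to 23.4) and 10.4% (8.08 to 13.0) in SOX13/RHEX T, so that each was higher with IGF2 but the intervals overlapped.

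**Figure D4:**
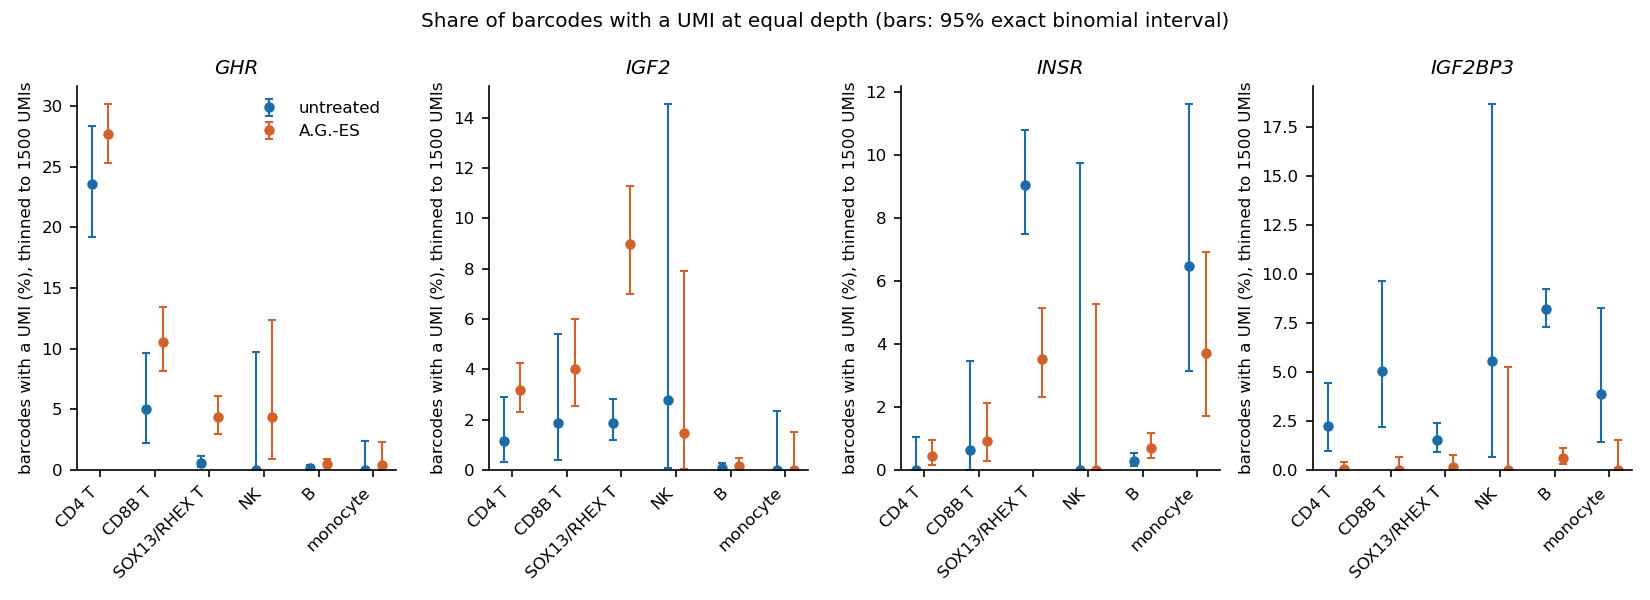
Share of barcodes with a UMI of GHR, IGF2, INSR and IGF2BP3 in percent (linear axis), after barcodes were thinned to 1500 UMIs with shallower ones left out (in NK 8 of 44 and 27 of 95, in B 121 of 3462 and 49 of 1922, in SOX13/RHEX T 47 of 1264 and 9 of 744, and in the other gates 2 to 17), for 6 gates, untreated in blue and A.G.-ES in orange, with exact binomial 95% intervals. In the B gate IGF2BP3 drops from 8.23% to 0.641%, and in the SOX13/RHEX T gate IGF2 goes from 1.89% to 8.98% and INSR from 9.04% to 3.54%.

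IGF2BP3 showed the widest gap between the libraries. In the B gate it had 2071 UMIs untreated (64.0 CPM, 61.3 to 66.8) and 70 in A.G.-ES (6.31 CPM, 4.92 to 7.97), a ratio of 0.0986 (0.0765 to 0.125). It was in 977 untreated B-gate barcodes (28.2%) and 52 A.G.-ES ones (2.71%), and after thinning in 8.23% (7.32 to 9.21) and 0.641% (0.331 to 1.12). The gap was also present in 4 other gates. The CD4 T gate had 32 UMIs untreated and 1 in A.G.-ES (0.00924, 0.000227 to 0.0553), the CD8B T gate 53 and 1 (0.00711, 0.000177 to 0.0414), and the SOX13/RHEX T gate 44 and 1 (0.0342, 0.000846 to 0.201). The monocyte gate had 28 and 0, at least 18.7-fold lower in A.G.-ES against a floor of 3 counts. The NK gate had 3 and 0.

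IGF2BP3 outside the B gate was compared with B-lineage genes, since free RNA in droplets can carry B-cell transcripts into other barcodes. In the untreated library BANK1, EBF1, CD22 and FCRLA reached at most 8.44% of their B-gate level in the T and monocyte gates. IGF2BP3 reached 25.7% of its B-gate level in CD4 T, 91.9% in CD8B T, 14.1% in SOX13/RHEX T and 53.7% in the monocyte gate, above those 4 genes in each. The part of free RNA in these levels was not tested. The untreated CD8B T gate, at 58.9 CPM (44.1 to 77.0), was as high as the B gate within its interval.

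In untreated B-gate barcodes genes of cell division were higher where IGF2BP3 was detected. TOP2A, which untangles DNA at mitosis, stood at 170 CPM in IGF2BP3-positive and 35.9 CPM in other barcodes, and MKI67, the proliferation marker, at 141 and 40.1 CPM, with DIAPH3, KIF11 and CENPF also among the first 5. In A.G.-ES the cycling list (MKI67, TOP2A, RRM2) stood at 15.2 CPM in IGF2BP3-positive and 16.5 CPM in other barcodes of the gate. The antibody-secreting list was higher in the positive barcodes of both libraries, at 1027 against 535 CPM untreated and 560.0 against 353 CPM in A.G.-ES. The IGF2BP3-positive barcodes were deeper in both libraries, with a median of 10914 against 8004 UMIs untreated and 7118.5 against 5141.5 UMIs in A.G.-ES. The cycling list also differed between libraries, at 168 and 16.5 CPM in the B gate, 585 and 60.7 CPM in CD8B T and 156 and 34.6 CPM in CD4 T, with 3 of 3 genes detected in each. Without barcodes with a UMI of that list, an exclusion chosen after the values were seen, IGF2BP3 in the B gate stood at 58.8 CPM (55.9 to 61.7) untreated and 6.25 CPM (4.83 to 7.95) in A.G.-ES. The part of cycling cells in the result was not tested further.

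IGF2BP3 was lower in A.G.-ES than in the untreated library in each B subset compared. Barcodes with FCER2, the low-affinity IgE receptor of mature B cells, had 64.8 CPM (53.9 to 77.2) and 8.94 CPM (4.76 to 15.3), and those without it 64.0 CPM (61.2 to 66.9) and 5.91 CPM (4.48 to 7.66). Barcodes with JCHAIN and MZB1, genes of antibody-secreting cells, had 83.6 CPM (73.8 to 94.3) untreated, above the barcodes without FCER2, and 1 UMI in A.G.-ES (1.76 CPM, 0.0446 to 9.82). In untreated CD8B T barcodes the IGF2BP3 level was 89.4 CPM (61.5 to 126) with GNLY and 33.4 CPM (19.1 to 54.2) at 0 GNLY. These intervals of level did not overlap, but the levels rest on 33 UMIs in 12 of 80 barcodes and 16 in 8 of 77. Single barcodes held up to 7 and 6 of those UMIs. The shares of barcodes with IGF2BP3, 15% (7.998 to 24.7) and 10.4% (4.59 to 19.4), overlapped.

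IGF2BP2 was rare. The SOX13/RHEX T gate had 27 UMIs untreated (5.53 CPM, 3.64 to 8.04) in 16 barcodes and 2 in A.G.-ES, a ratio of 0.111 (0.0128 to 0.443). The B gate had 10 and 2 UMIs. The CD4 T and NK gates had 0 UMIs in both libraries, and the CD8B T and monocyte gates 0 untreated and 1 in A.G.-ES. In the SOX13/RHEX T gate the family's other member, IGF2BP1, was also lower in A.G.-ES, with 45 and 5 UMIs and a ratio of 0.167 (0.0517 to 0.419). All 3 IGF2BP genes were thus lower in A.G.-ES in that gate.

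By the same measure of likeness over the 12 sums, IGF1R was closest to APLP2 (0.96), ZNF516 (0.95) and ZMIZ1 (0.94), followed by CYRIA and PSD3 (0.93 each). IGF2R was closest to ABCA3 (0.97), with GLIS3, IRAK3, JAG1 and FGR at 0.96. INSR was closest to MAML3 (0.93), DNAAF9 and PLXDC2 (0.91 each), then ACSS3 and LPCAT2 (0.90 each). IGF2 was closest to AKAP7 (0.94), then GCSAML and SPSB3 (0.90 each), P3H1 (0.89) and CASP6 (0.88). IGF2BP3 was closest to IL31RA and TSSC4 (0.89 each), then KAT2A and RABGGTB (0.86 each) and COL25A1 (0.85). These are likenesses of level between gates, not of single barcodes.

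Around the receptors, 86 of 89 further axis genes were in the files. In the CD4 T gate 57 passed the minimum, of which 3 were at least 1.5-fold higher in A.G.-ES and 7 lower (all genes 10.4% and 18.3%), with a median log2 ratio of -0.17, equal to the -0.17 of all genes. In CD8B T 50 passed, 5 higher and 10 lower (all genes 9.86% and 29.9%), with a median of -0.38 against -0.29 for all genes. In SOX13/RHEX T 56 passed, 9 higher and 11 lower (all genes 10.7% and 17%), with medians of -0.05 and -0.13. In NK 27 passed, 3 higher and 2 lower (all genes 19% and 18.2%), with medians of 0.05 and 0.03. In B 59 passed, 11 higher and 7 lower (all genes 17% and 17.1%), with medians of -0.12 and -0.07. In monocytes 47 passed, 0 higher and 5 lower (all genes 15.2% and 15.3%), with medians of -0.18 and -0.04. With TMM scaling the CD8B T counts became 12 higher and 4 lower and the CD4 T counts 4 and 4.

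Among ligands, GH, growth hormone itself, had 141 UMIs untreated and 36 in A.G.-ES, all of those in gates falling in the B gate (4.36 and 3.25 CPM, ratio 0.744, 0.501 to 1.08). In the RefSeq table of the assembly ARS-UI_Ramb_v3.0, GH is the neighbour of CD79B, a B-cell receptor gene used to set that gate, and the part of CD79B reads in the GH count was not tested. IGF1 had 3 untreated and 31 A.G.-ES UMIs in the B gate, 30.1 (9.40 to 154) as a ratio, and 0 and 12 in the monocyte gate. PRLH, prolactin-releasing hormone, was at 0 in every untreated gate and had 141 UMIs in CD4 T (21.4 CPM), 75 in CD8B T (31.4 CPM) and 168 in SOX13/RHEX T (51.7 CPM) of A.G.-ES, at least 13.9-, 9.42- and 84.2-fold higher against a floor of 3 counts. INS, PRL and GHRH were at 0 in all gates, as were IGFBP1, IGFBP2 and IGFBP3, the binding proteins of IGF in plasma. STC1, an inhibitor of the proteases that free IGF from its binding proteins, was higher in A.G.-ES in CD4 T (18 and 124 UMIs, 2.04, 1.24 to 3.55) and in SOX13/RHEX T (1 and 21 UMIs, 31.6, 5.08 to 1305). IGF1 and STC1 were chosen after their values were seen.

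In the JAK2 and STAT5 branch, which GHR uses, 14 of 16 genes passed in the CD4 T gate, 0 higher and 1 lower, the same counts as with TMM or DESeq2 scaling, against the 10.4% and 18.3% of all genes. STAT5B, the signal carrier, stood there at 1094 and 896 CPM (0.819, 0.779 to 0.861). CISH, an inhibitor that STAT5 induces, was the lower gene, at 15.9 and 6.37 CPM (0.400, 0.246 to 0.659). In SOX13/RHEX T 4 of 14 were higher and 1 lower, where all genes had 10.7% and 17%, with SOCS1, another inhibitor, at 5.94 and 15.7 CPM (2.64, 1.64 to 4.32). The B gate had 4 of 15 higher and 0 lower, where all genes had 17% and 17.1%. In monocytes 0 of 11 crossed 1.5-fold, where all genes had 15.2% and 15.3%, with JAK2 at 1021 and 1224 CPM (1.20, 1.10 to 1.30) and PTPN1, a phosphatase acting on JAK2 and the insulin receptor, at 2214 and 1630.3 CPM (0.736, 0.693 to 0.782). In NK, STAT3 was at 403 and 244 CPM (0.605, 0.409 to 0.893) and JAK2 at 177 and 140 CPM (0.792, 0.452 to 1.40). In CD8B T 1 of 14 genes of the branch was higher and 2 lower, where all genes had 9.86% and 29.9%. TMM or DESeq2 scaling turned these counts to 3 and 1, and gave 1 higher gene in place of 0 in monocytes and in NK. The counts in SOX13/RHEX T and B did not move.

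In the PI3K and AKT branch, which IGF1R and INSR use, the counts on the CPM scale were 1 higher and 5 lower of 25 in CD4 T, 2 and 7 of 22 in CD8B T, 1 and 7 of 25 in SOX13/RHEX T, 3 and 4 of 26 in B, 0 and 3 of 22 in monocytes and 2 and 0 of 15 in NK. The all-gene shares given above for each gate were likewise larger for lower than for higher genes in the 3 T gates and about even in the others, so nothing is read from these counts about the branch. With TMM the counts were 1 higher and 2 lower in CD4 T, 3 and 2 in CD8B T and 1 and 3 in SOX13/RHEX T. They were 0 and 2 in monocytes and 5 and 0 in NK, and stayed at 3 and 4 in B. DESeq2 size factors gave the same counts except for 1 and 5 in SOX13/RHEX T and 3 and 3 in B. IRS2, the adaptor below INSR and IGF1R, was lower in the SOX13/RHEX T gate (16.4 and 3.38 CPM, 0.207, 0.0992 to 0.390), where INSR was also lower, and in monocytes (31.9 and 15.4 CPM, 0.481, 0.266 to 0.867). IRS1 was at 0 in all gates. FOXO1, a transcription factor that AKT holds out of the nucleus, was lower in B (323 and 125 CPM, 0.386, 0.365 to 0.409) and in monocytes (57.7 and 26.4 CPM, 0.458, 0.295 to 0.707).

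PIK3R1, the regulatory subunit of PI3K, was lower in CD4 T (383 and 211 CPM, 0.549, 0.502 to 0.601), and its catalytic partner PIK3CD in CD8B T (55.5 and 23.0 CPM, 0.415, 0.277 to 0.621). INPP5D, a phosphatase that opposes PI3K, stood at 761 and 468 CPM in SOX13/RHEX T (0.615, 0.579 to 0.653) and at 920 and 1098 CPM in NK (1.19, 0.961 to 1.49). Higher in A.G.-ES were EIF4EBP1, a brake on translation, in CD4 T (7.70 and 17.8 CPM, 2.31, 1.34 to 4.25) and GRB14, an inhibitor of the insulin receptor, in B (1.89 and 4.15 CPM, 2.20, 1.47 to 3.28). In NK the highest ratios were those of PIK3CA (163 and 244 CPM, 1.499, 0.905 to 2.56) and FOXO3 (106 and 158 CPM, 1.49, 0.793 to 2.94), whose intervals hold 1.

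Among partners of IGF2 and the IGF2BP proteins, MYC, whose messenger RNA IGF2BP proteins bind, was lower in the B gate (145 and 48.5 CPM, 0.334, 0.305 to 0.366), where IGF2BP3 was lower too. YBX1, an RNA-binding protein, stood there at 547 and 369 CPM (0.675, 0.653 to 0.699). ACTB, another messenger RNA that the family binds, was among the 2 genes with the most UMIs in each gate, with ratios from 0.668 (0.640 to 0.698) in CD8B T to 1.15 (1.11 to 1.19) in SOX13/RHEX T. Among genes of lysosomal cargo that IGF2R sorts, CTSB, a protease, was higher in B (11.4 and 29.0 CPM, 2.55, 2.19 to 2.97). GNPTAB, which makes the tag that IGF2R reads, was lower in CD8B T (48.9 and 18.8 CPM, 0.385, 0.249 to 0.598).

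Barcodes in no gate held a large part of the axis transcripts. Of all GHR UMIs, 1048 of 1992 untreated and 2701 of 5278 in A.G.-ES were in such barcodes, at 110 CPM (104 to 117) and 192 CPM (184 to 199). Those of them with T markers, 1522 and 2729 barcodes, had 95.2 CPM (88.7 to 102) and 178 CPM (170 to 186) of GHR, 10.5 CPM (8.43 to 13.0) and 40.1 CPM (36.5 to 43.9) of IGF2, 31.6 CPM (27.9 to 35.6) and 10.9 CPM (9.05 to 12.9) of INSR, and 17.5 CPM (14.8 to 20.6) and 0.0854 CPM (0.00216 to 0.476) of IGF2BP3. Each of the 4 genes thus differed there in the direction it took in the SOX13/RHEX T gate. This accounting was added after the gates were seen to leave many barcodes out.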

How the data were processed

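The SeekOne DD 3′ kit was used, per the labels' protocols. The authors deposited matrices of raw UMI counts. Which aligner and build they used is not given in the sources used here. The genes and lists were chosen with earlier results of these data known. Barcodes with at least 500 UMIs, 200 genes and at most 15% mitochondrial UMIs were kept (158 and 186 failed). Scrublet (scanpy 1.11.5) scored doublets, and the highest 0.8% per 1000 cells were removed (523 and 715; its own threshold marked 217 and 216). Gates needed at least 2 (T, B) or 3 (monocyte) UMIs of their marker set and at most 1 of another. Counts summed per gate gave CPM with exact Poisson intervals, shares with Clopper-Pearson intervals and ratios with conditional binomial intervals (scipy 1.17.1), which were tested on simulated data. In that test a first single draw missed the required coverage in the B gate, after which draws were pooled and the bound was reset. Thinned values rest on 1 random draw. Alternatives used edgeR 4.0.16 (TMM) and DESeq2 1.42.0 (size factors). Named further genes were, in each gate, the 2 with most UMIs and the 2 highest and 2 lowest ratios among those with at least 50 UMIs, and for likeness the 5 closest genes with at least 200 UMIs. A few of the genes so named are left out of the text, while counts and medians include them. Positive and other barcodes were compared for 13 sets of gene, gate and library, added after the values were seen.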

Additional observations from a re-analysis of the deposited data

Results flagged for a closer look

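For 3 genes the ratio of A.G.-ES to untreated went in opposite directions in different gates, each past 1.5-fold with an interval that leaves out 1. The difference between gates was not tested, since each gate has 1 library per group. IGF2R was higher in the CD4 T gate (1.53) and lower in the monocyte gate (0.537). The CD4 T ratio came to 1.09 thinned to 1500 UMIs, 1.28 with equal weights and 1.31 with doublets kept, and the monocyte ratio to 0.770 thinned to 1500 UMIs. The monocyte shares were 16.9% and 15.7% at 1500 UMIs but 16.3% and 6.53% at 1000. INSR was higher in the B gate (2.34) and lower in the SOX13/RHEX T gate (0.395), where the B value rests on 66 and 53 UMIs. IGF2 was higher in the CD4 T (1.59), CD8B T (4.45) and SOX13/RHEX T (8.10) gates and lower in the NK gate (0.0766), where 22 of the 25 untreated UMIs came from 1 barcode.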

How the results depend on the processing

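Over 32 ratios of the axis genes and 255 values under other settings, 232 stayed within the counting interval and 23 moved out of it. None of the ratios past 1.5-fold changed sides of 1. Of the ratios short of 1.5-fold, IGF1R in SOX13/RHEX T (1.36 to 0.927 with at least 3 SOX13 and RHEX UMIs) and monocytes (0.697 to 1.22 thinned), IGF2R in SOX13/RHEX T (1.13 to 0.989) and B (0.952 to 1.09 thinned), and IGF2 in B (1.28 to 0.749 with equal weights and 0.892 thinned) did so. GHR in CD4 T (0.780) became 0.903 with TMM, 0.889 with DESeq2 size factors, 0.674 with equal weights, 0.702 thinned and 0.985 without FOXP3-positive barcodes. Thinned values were 0.770 for IGF2R in monocytes, 6.13 for IGF2 in SOX13/RHEX T, 0.0746 for IGF2BP3 in B and 0 for IGF2BP3 in CD8B T. Stricter gates gave 0.706 for IGF2R in monocytes, 0.232 for INSR in SOX13/RHEX T and 1.48 for INSR in B. GHR in CD4 T over SOX13/RHEX T was 16.2 untreated and 3.70 in A.G.-ES (6.31 with equal weights), and over CD8B T 2.48 in A.G.-ES, with stricter gates. Settings chosen after seeing the data gave, without the barcode with the most UMIs, 8.64 for GHR in SOX13/RHEX T and 2.33 for IGF2 in CD4 T, with at least 3 SOX13 and RHEX UMIs 151.9 for GHR (1 and 85 UMIs) and 6.11 for IGF2, and without IL1R1 4.05 for IGF2. Ratios near 1.5-fold crossed it in further settings, among them IGF2R in NK (0.638 to 0.892 with doublets kept), INSR in monocytes (0.743 to 0.521 thinned) and IGF2R in CD8B T (0.688 to 0.544 thinned). The causes were not tested.

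Counts of all genes past 1.5-fold, at the minimum of 20 UMIs, with no minimum and at 100 UMIs, were 2870, 6966 and 1341 in CD4 T, 3289, 7713 and 1310 in CD8B T, 2730, 6869 and 1234 in SOX13/RHEX T, 1145, 7077 and 179 in NK, 4278, 7807 and 2753 in B, and 2199, 6996 and 652 in monocytes. Of the further axis genes, no minimum gave 17 in place of 10 in CD4 T, 27 for 15 in CD8B T, 21 for 5 in NK, 31 for 18 in B and 18 for 5 in monocytes. A minimum of 100 gave 7 in CD8B T, 12 in place of 20 in SOX13/RHEX T, 1 in NK and 1 in monocytes, and TMM gave 8 in NK. No paired analysis was possible because each group has 1 library. The NK gate, with 44 and 95 barcodes, limits what can be said of any gene there.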
